A study of Homo sapiens with 32 samples.

Results

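Small nucleolar RNA (snoRNA) genes were followed in newly made RNA of HUH7 cells, an established human hepatoma line, as the cells left mitosis. Of 240 such genes in the deposited table, 224 reached at least 1 FPKM (fragments per kilobase, scaled to the library's total) in at least 3 of 7 columns and were described here, out of 22940 genes that met the same minimum. They comprised 100 box H/ACA genes, named SNORA, and 124 box C/D genes, named SNORD. The members were chosen by symbol and by this level, so that their levels are a description.

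The culture was kept for 24 hours in 2 mM thymidine, let go for 2 hours, treated with nocodazole, a spindle poison, at 0.06 ug/mL for 16 hours, and shaken off. After release the cells were labelled at 0, 40, 80, 105, 165 or 300 minutes, and an asynchronous culture was labelled as well. All 7 groups received 0.5 mM EU (5-ethynyl uridine, a modified uridine taken up into RNA as it is made) for 40 minutes, and the labels leave unstated whether a time opens or closes that pulse. Each group has 3 labelled samples, but the table holds 1 pooled value per group, so no difference below has a replicate check or a test. Groups without EU and groups with spike-in RNA were not analysed here.

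snoRNAs guide chemical modification of other RNAs in the nucleolus. Box C/D snoRNAs, named for their C and D sequence boxes, direct methylation of the ribose by fibrillarin, and box H/ACA snoRNAs direct the change of uridine to pseudouridine by dyskerin. Most human snoRNAs lie in introns of other genes and are released from the spliced intron by exonucleases, so that host and snoRNA are copied together as 1 transcript. Many hosts encode ribosomal proteins or nucleolar proteins, and others are long noncoding RNAs whose spliced product is known mainly as a carrier.

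The sequences below were taken from GENCODE release 29 (GRCh38), because their levels carry the patterns that follow. Capitals in the box C/D sequences mark TGATG near the 5′ end (the C box) and CTGA near the 3′ end (the D box). The first 4 lie in introns of the ribosomal protein gene RPL13A on chromosome 19, then SNORD2 in EIF4A2 on chromosome 3 and SNORD86 in NOP56 on chromosome 20.
SNORD32A: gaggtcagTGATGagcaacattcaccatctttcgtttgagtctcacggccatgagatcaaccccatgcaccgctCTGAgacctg
SNORD33: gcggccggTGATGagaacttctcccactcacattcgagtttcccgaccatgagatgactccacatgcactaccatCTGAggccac
SNORD34: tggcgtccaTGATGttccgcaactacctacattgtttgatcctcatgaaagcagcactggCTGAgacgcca
SNORD35A: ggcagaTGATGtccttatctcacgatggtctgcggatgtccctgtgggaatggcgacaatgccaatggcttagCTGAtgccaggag
SNORD2: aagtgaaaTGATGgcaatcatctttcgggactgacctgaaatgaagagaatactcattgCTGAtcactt
SNORD86: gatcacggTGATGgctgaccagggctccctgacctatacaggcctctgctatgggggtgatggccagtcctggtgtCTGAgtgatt

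In the box H/ACA sequences, capitals mark the last ANANNA of the middle (the letters of the H box) and ACA near the 3′ end. SNORA63 lies in EIF4A2 on chromosome 3, SNORA52 in RPLP2 on chromosome 11, SNORA64 in RPS2 on chromosome 16 and SNORA73B in SNHG3 on chromosome 1.
SNORA63: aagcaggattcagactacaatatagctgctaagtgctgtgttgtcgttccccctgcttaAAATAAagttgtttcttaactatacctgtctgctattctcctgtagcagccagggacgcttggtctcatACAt
SNORA52: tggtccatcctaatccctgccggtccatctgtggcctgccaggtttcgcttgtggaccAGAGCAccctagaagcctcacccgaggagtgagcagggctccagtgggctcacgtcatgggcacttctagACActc
SNORA64: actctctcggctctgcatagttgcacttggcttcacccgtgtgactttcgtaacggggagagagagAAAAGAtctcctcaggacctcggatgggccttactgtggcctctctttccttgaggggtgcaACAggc
SNORA73B: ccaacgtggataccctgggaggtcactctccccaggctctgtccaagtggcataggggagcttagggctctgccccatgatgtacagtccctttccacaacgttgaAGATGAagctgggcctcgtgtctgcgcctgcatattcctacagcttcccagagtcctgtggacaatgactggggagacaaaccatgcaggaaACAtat

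The class names were checked against the sequences. Searched on the RNA strand, TGATG starting in the first 15 bases and CTGA in the last 15 were both present in 91 of 112 box C/D members with a sequence (81.2%) and in 0 of 100 box H/ACA members. ANANNA at least 45 bases from either end and ACA in the last 8 were both present in 89 of 100 box H/ACA members (89.0%) and in 0 of 112 box C/D members, although most box C/D RNAs are too short to hold the middle window. Box H/ACA members had a median length of 134 bases (121 to 250) and box C/D members of 79 bases (55 to 237).

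Near the minimum, SNORA11B was kept with 3.16 FPKM in the lowest of its 3 highest columns, SNORA77 with 3.68 and SNORD109A with 12.5, while SNORD114-9 was left out with 0.498 FPKM. The 16 genes left out were SNORA11C and SNORA27 and 14 SNORD genes, 12 of them from the imprinted SNORD114 and SNORD115 clusters, together with SNORD4B and SNORD68. The table held SNORD22 and SNORA73B of the snoRNAs known for roles in cutting the ribosomal RNA precursor, and the others (U3, U8, U13 and the U14 genes) were not analysed here.

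Read totals are not given, so precision was gauged from the steps in which the lowest values of microRNA genes repeat. If a step is 1 read, a box C/D snoRNA of the median length, 79 bases, gained 51.4 FPKM per read at 0 minutes and 27.5 FPKM in the asynchronous culture. A box H/ACA snoRNA of 134 bases gained 30.3 FPKM at 0 minutes and 16.2 FPKM in the asynchronous culture. Of the members, 125 had at least 10 such steps in all columns and 46 had fewer than 3 in at least 1 column. Counting intervals below are 95% Clopper-Pearson intervals from these steps, and they cover counting error alone, since reads without molecular identifiers are not independent molecules. Some values lie under 1 step, so a step is not always a whole read. Steps were rounded to whole numbers for the intervals, which are therefore approximate. All 12 hepatoma markers were at 1 FPKM or more in every column, summing to between 3422 FPKM at 0 minutes and 22148 FPKM in the asynchronous culture, whereas 3 to 5 of 5 blood markers reached 1 FPKM and summed to between 119 and 377 FPKM. The sum of 6 stroma or endothelium markers, 5 or 6 of which reached 1 FPKM, ran between 1471 FPKM in the asynchronous culture and 4316 FPKM at 105 minutes. The vimentin gene VIM, widely expressed in cultured cells, made up 1422 FPKM and 4238 FPKM of these sums, and the part of the markers in the results was not tested.

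As deposited, the medians of both classes were lowest at 0 minutes and highest at 80 minutes. The median box H/ACA member stood at 329.7, 489, 700.1, 610.1, 554 and 549 FPKM at 0, 40, 80, 105, 165 and 300 minutes, and at 500.1 FPKM in the asynchronous culture. The median box C/D member stood at 736, 1044, 1572, 1286, 1115 and 1184 FPKM at the same times, and at 1159.5 FPKM in the asynchronous culture. By median FPKM, box C/D members were thus the higher class in every column, while the spread within each class was far wider than the difference between them. The classes also differ in median length, 79 bases for box C/D and 134 for box H/ACA, and in their hosts. The part of length and host in this difference was not tested.

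**Figure D1:**
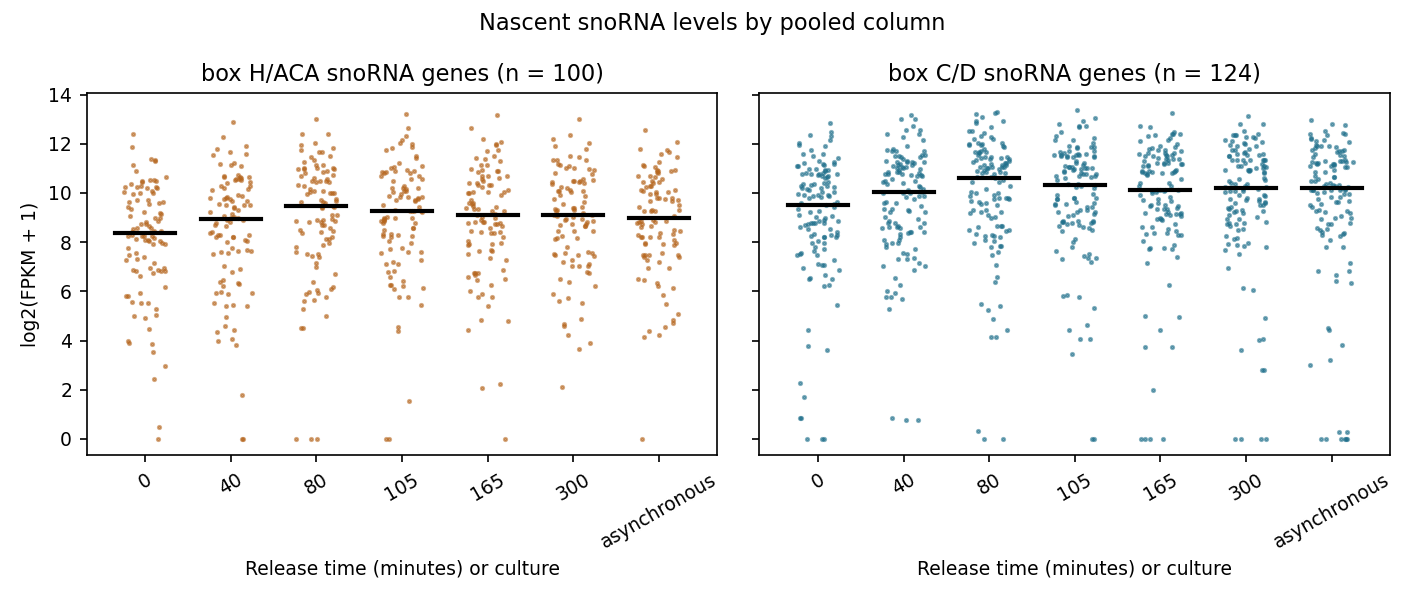
Level of each kept snoRNA gene, log2(FPKM + 1), in the 6 release columns (minutes) and the asynchronous culture, for 100 box H/ACA genes (left) and 124 box C/D genes (right). Each point is 1 gene in 1 pooled column and the black bar is the class median, which is lowest at 0 minutes and highest at 80 minutes in both classes.

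The columns did not have equal totals, and this bears on every fold. Over all kept genes FPKM summed to 3017087 at 0 minutes, 5093467 at 80 minutes and 4217386 in the asynchronous culture. The 224 members made up 6.94%, 7.81%, 7.44%, 6.75%, 6.98% and 7.65% of these sums at 0, 40, 80, 105, 165 and 300 minutes, and 7.35% in the asynchronous culture. Their summed share was thus 6.94% at 0 minutes and 7.35% in the asynchronous culture, while the medians differed more. As deposited, the median log2 fold at 0 minutes against the asynchronous culture was -0.63 for members and -0.14 for all kept genes. With columns brought to equal sums it was -0.15 for members and 0.31 for all kept genes, so that members lay below the median gene on both scales. The median kept gene was at 40.1 FPKM at 0 minutes and the median member at 465 FPKM. Among genes with at least 10 FPKM in 3 columns, the deposited medians were closer, at -0.63 for members and -0.40 for all such genes. At 80 against 0 minutes the medians were 0.84 for members and 0.31 for all kept genes as deposited, and 0.08 and -0.40 on equal sums. Folds below are of FPKM + 1 as deposited, with each median also given after the median of all kept genes was taken off.

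At 0 minutes against the asynchronous culture, 3 of 100 box H/ACA members were at least 2-fold higher and 31 at least 2-fold lower. Of 124 box C/D members, 5 were higher and 24 lower. The background over all kept genes was 14.1% higher and 19.0% lower by that size. The class medians were -0.68 for box H/ACA and -0.61 for box C/D on the log2 scale, which is -0.54 and -0.47 relative to all kept genes. Among the 183 members with at least 3 steps in both columns, all those at least 2-fold higher dropped out, leaving 0 higher in either class.

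Some low values at 0 minutes came from single members whose hosts differed far less. SNORA73B, a box H/ACA RNA known to act in cutting the ribosomal RNA precursor, was at 112, 516, 1645, 844, 1038 and 1423 FPKM at 0, 40, 80, 105, 165 and 300 minutes, and at 2140.5 FPKM in the asynchronous culture. Its log2 fold at 0 minutes against the asynchronous culture was -4.24, with a counting interval of the ratio between 0.0201 and 0.123. Its host SNHG3 was at 1322 FPKM at 0 minutes and 2869 FPKM in the asynchronous culture, a log2 fold of -1.12. SNORD86 in NOP56 was at 42.9, 336, 959, 597, 869 and 1979 FPKM over the release and at 1976 FPKM in the asynchronous culture, a log2 fold of -5.49 at 0 minutes against the asynchronous culture on 0.908 steps at 0 minutes. SNORD86 was thus nearly undetected at 0 minutes and level with the asynchronous culture at 300 minutes.

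SNORA21, in the ribosomal protein gene RPL23, was at 6.78 FPKM at 0 minutes, less than 1 step, and at 178 FPKM in the asynchronous culture. SNORA36B, in RAB3GAP2, also had less than 1 step at 0 minutes, and was at 179 FPKM in the asynchronous culture. The upper bound of the ratio's counting interval was 0.744 for each, an approximate bound because values under 1 step are not whole reads. SNORD88C, in C19orf48, was at 247 FPKM at 0 minutes and 1429 FPKM in the asynchronous culture, and SNORD93, in SNHG26, at 211 FPKM and 1119.9 FPKM in the same columns.

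SNORA64, in the ribosomal protein gene RPS2, went the other way. It was at 509, 876, 1026, 932, 75.9 and 189 FPKM at 0, 40, 80, 105, 165 and 300 minutes, and at 20.0 FPKM in the asynchronous culture. Its log2 fold at 0 minutes against the asynchronous culture was 4.60, with a counting interval of the ratio that began at 4.97, while RPS2 itself stood at 418 FPKM at 0 minutes and 523 FPKM in the asynchronous culture. SNORA64 was the 1 member at least 2-fold higher whose counting interval lay above 1. Its 20.0 FPKM in the asynchronous culture is few steps, with 1 step there at 16.2 FPKM for its 134 bases. The other largest folds upward here were those of SNORA70G, SNORA78, SNORD121B, SNORD125 and SNORD56B, among members with at least 1 FPKM in the asynchronous culture. These had between 1.32 and 3.17 steps at 0 minutes and intervals that spanned 1. SNORA78 and some of the box C/D members named here were less than 2-fold higher. Of the 5 box C/D members at least 2-fold higher, 3 lie in MEG8 and 1 in RPL13A, all listed at 0 in the asynchronous culture.

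At 40 minutes against 0 minutes, 9 of 100 box H/ACA members were up 2-fold or more and 4 down by as much, and 21 of 124 box C/D members were up and 3 down. Of all kept genes 3.24% were up and 2.05% down. The class medians were 0.41 for box H/ACA and 0.47 for box C/D, or 0.31 and 0.36 relative to all kept genes. SNORA57, in the methyltransferase gene CSKMT, had a log2 fold of 2.46, SNORA73B of 2.19 and SNORA21 of 4.54. Among box C/D members with at least 1 FPKM at 0 minutes, SNORD32A (7.32), SNORD36C (6.38) and SNORD86 (2.94) had the largest log2 folds, each from less than 1 step at 0 minutes. Among members with at least 1 FPKM at 40 minutes the 3 largest log2 folds downward in each class, SNORA37 (-1.42), SNORA58 (-1.45), SNORA70F (-1.21), SNORD121B (-1.01), SNORD125 (-1.38) and SNORD61 (-0.92), rested on 1.84 to 6.57 steps at 0 minutes, and 0 members at least 2-fold lower had an interval below 1.

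By 80 minutes, 41 of 100 box H/ACA members were up 2-fold or more over 0 minutes and 4 down by as much, and 54 of 124 box C/D members were up and 3 down. Of all kept genes 20.1% were up and 2.65% down. The class medians were 0.83 for box H/ACA and 0.85 for box C/D, or 0.52 and 0.54 relative to all kept genes. With columns brought to equal sums the counts fell to 12 higher and 8 lower for box H/ACA and to 13 higher and 7 lower for box C/D. The share of all kept genes past 2-fold was not counted on equal sums, so the deposited shares do not apply to these counts. In 64 of the 95 members at least 2-fold higher the counting interval lay above 1, and it lay below 1 in 0 of the 7 lower.

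The medians of the 2 classes lay close together. The box H/ACA median minus the box C/D median of the log2 fold was -0.07 at 0 minutes against the asynchronous culture, -0.05 at 40 against 0 minutes, -0.02 at 80 against 0 minutes and 0.08 at 300 minutes against the asynchronous culture. Over 10 comparisons between columns this difference ran between -0.07 and 0.15, and it was 0.15 at 80 against 40 minutes. With 1 value per group no interval over samples stands behind these differences.

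At 300 minutes against the asynchronous culture, 4 of 100 box H/ACA members were up 2-fold or more and 6 down by as much, and 11 of 124 box C/D members were up and 4 down. Of all kept genes 9.84% were up and 8.57% down, so that the members' shares lay below the background in each class and direction. The class medians were 0.12 for box H/ACA and 0.05 for box C/D, or 0.01 and -0.06 relative to all kept genes. SNORA64 had a log2 fold of 3.18, from few steps in the asynchronous culture. SNORA74B, in the proton pump gene ATP6V0E1, had a log2 fold of 1.17, with 1415 FPKM at 300 minutes and 627 FPKM in the asynchronous culture. SNORA11 (1.18), SNORD124 (3.10), SNORD121B (2.38) and SNORD115-3 (2.84) had high folds too, from 0.312 to 2.92 steps in the asynchronous culture.

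A pair from 1 host was among the lower members at 300 minutes. SNORA50C and SNORD104, both in the noncoding host SNHG25, were at 275 and 799.7 FPKM at 300 minutes and at 1375 and 2396 FPKM in the asynchronous culture. At 0 minutes they had been at 213 and 470.3 FPKM, so that this pair, 1 box H/ACA and 1 box C/D, stayed below the asynchronous culture in all 6 release columns. SNORD60, in SNHG19, was at 304 FPKM at 300 minutes and 783 FPKM in the asynchronous culture, and SNORD58A, in RPL17, at 614 FPKM and 1258 FPKM. SNORA47 (-2.60) and SNORA60 (-2.83) had fewer than 6 steps in the asynchronous culture.

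Hosts were then used to order the members, a grouping chosen after the values were seen. A host was found for 223 members, as the smallest GENCODE gene on the same strand that spans the snoRNA. There were 47 members in 26 ribosomal protein genes, 54 in 24 noncoding genes and 122 in 79 other protein-coding genes, and 21 members overlap an annotated exon while the others do not. Box H/ACA members were found 15, 21 and 63 times in these host classes and box C/D members 32, 33 and 59 times.

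Members differed by class of host in when they were highest. The median of members with a ribosomal protein host was 787, 1411, 1979.7, 1579, 1251 and 1091 FPKM at 0, 40, 80, 105, 165 and 300 minutes, and 1123 FPKM in the asynchronous culture. Members with another protein-coding host had medians of 379, 453, 679.7, 614, 715 and 758 FPKM at these times, and 623 FPKM in the asynchronous culture. Members with a noncoding host had medians of 507, 767, 1134, 902, 708 and 826 FPKM, and 1116 FPKM in the asynchronous culture. As deposited, the ribosomal protein and noncoding medians were highest at 80 minutes and the other protein-coding median at 300 minutes. The time of the noncoding class depended on the scale, as given below. With a ribosomal protein host, 19 members were highest at 80 minutes on equal column sums and 17 at 40 minutes.

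Between 0 and 80 minutes the fold differed by host as well. At 80 minutes 33 of 47 members with a ribosomal protein host were up 2-fold or more over 0 minutes and 0 down by as much, and their median log2 fold was 1.27. With a noncoding host 24 of 54 were up and 1 down (median 0.88), and with another protein-coding host 38 of 122 were up and 5 down (median 0.64). Of all kept genes 20.1% were up and 2.65% down in this comparison as deposited. On equal column sums the medians of these host classes were 0.52, 0.12 and -0.10. The direction of the other protein-coding class thus turned while the order of the classes did not. The counts on that scale fell to 10, 6 and 9 up, with 0, 1 and 13 down. At 300 against 80 minutes, 0 of 47 members with a ribosomal protein host were up 2-fold or more and 17 down by as much (median -0.63). With a noncoding host 2 of 54 were up and 9 down (median -0.45), and with another protein-coding host 23 of 122 were up and 11 down (median 0.25). Of all kept genes 8.12% were up and 13.8% down in this comparison.

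The release time of each gene's highest value shows the same order. It was 80 minutes for 32 of 47 members with a ribosomal protein host (68.1%), for 31 of 54 with a noncoding host (57.4%) and for 25 of 122 with another protein-coding host (20.5%), and for 23.1% of all kept genes. Members of 1 host are copied together, so these are counts of members and not of independent genes. SNHG1 alone gave 8, SNHG12 4 and GAS5 3 of the noncoding-host members highest at 80 minutes. Of the members with another protein-coding host, 37 were highest at 165 minutes and 38 at 300 minutes. On equal column sums 40.4%, 27.8% and 11.5% of these classes were highest at 80 minutes, and 13.1% of all kept genes. With a noncoding host 18 members were then highest at 40 minutes, 15 at 80 minutes and 15 at 300 minutes. After quantile normalization 16 of them were highest at 80 minutes and 20 at 300 minutes. By class, 39.0% of box H/ACA and 39.5% of box C/D members were highest at 80 minutes as deposited. On equal column sums the shares were 23.0% and 20.2%, and more members, 32 and 37, were highest at 300 minutes. After quantile normalization they were 23.0% and 24.2%, with 34 and 48 members highest at 300 minutes. The 80-minute maximum of both classes thus depended on the scale. Within other protein-coding hosts the classes differed as deposited. There 19 of 63 box H/ACA members (30.2%) and 6 of 59 box C/D members (10.2%) were highest at 80 minutes, and 13 and 25 of them at 300 minutes.

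**Figure D2:**
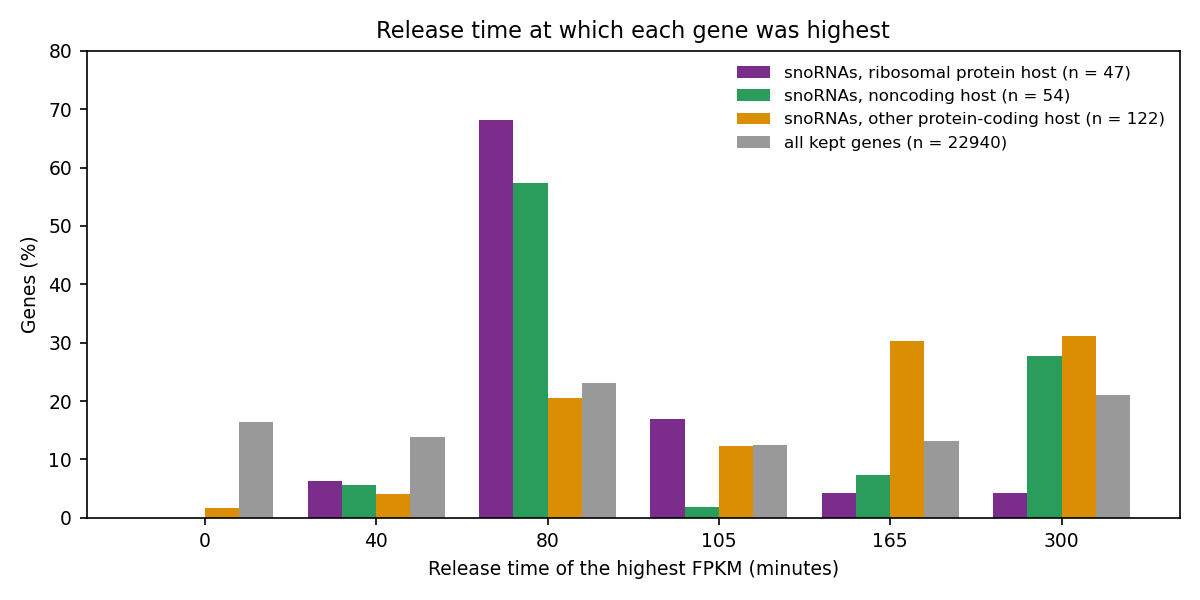
Share of genes (%) whose highest FPKM of the release, as deposited, fell at each time (minutes), for snoRNA genes by class of host and for all kept genes. Bars at 80 minutes reach 68.1% for ribosomal protein hosts, 57.4% for noncoding hosts, 20.5% for other protein-coding hosts and 23.1% for all kept genes.

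The 4 members in RPL13A, a protein of the large ribosomal subunit, made the clearest early group. SNORD33 was at 461, 1420, 2828, 1579, 649 and 519 FPKM at 0, 40, 80, 105, 165 and 300 minutes, and at 420.2 FPKM in the asynchronous culture. SNORD35A was at 367, 1510.1, 2039.6, 1272, 564 and 578 FPKM, and at 341 FPKM in the asynchronous culture. Both were highest at 80 minutes and within 2-fold of the asynchronous level at 165 and 300 minutes. The log2 folds at 80 against 0 minutes were 2.62 for SNORD33 and 2.47 for SNORD35A, with counting intervals of the ratio from 3.22 to 14.5 and from 2.57 to 13.0.

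SNORD34 was at 1103, 2287, 2829, 1841, 1514 and 1055 FPKM over the release, and at 739.7 FPKM in the asynchronous culture. SNORD32A was at 2.27, 522, 894 and 181 FPKM at 0, 40, 80 and 105 minutes and listed at 0 at 165 and 300 minutes and in the asynchronous culture. The host RPL13A was at 810.3, 1418, 1988, 1448, 989.8 and 872 FPKM, and at 825 FPKM in the asynchronous culture. Host and members were thus all highest at 80 minutes, with a log2 fold of 1.29 for the host and 1.36 to 8.10 for the members.

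SNORD32A was not alone in being listed at 0 within a transcribed host. Counting the genes left out by the minimum, 5 snoRNA genes were listed at 0 in at least 1 column in which the host had 100 FPKM or more, and all of them lie in ribosomal protein genes. SNORD4B, in RPL23A, was at 77.1 FPKM at 40 minutes and 393 FPKM at 80 minutes and listed at 0 elsewhere, with RPL23A at 555 FPKM or more. SNORD68, in RPL13, was at 164 FPKM at 80 minutes and 194 FPKM at 105 minutes and listed at 0 elsewhere. SNORD54, in RPS20, was at 389 FPKM at 40 minutes, 56.9 FPKM at 105 minutes and 21.5 FPKM in the asynchronous culture, and SNORA27, in RPL21, at 26.7 FPKM at 40 minutes alone.

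SNORA52, in RPLP2, was at 429, 744, 1870.3, 629, 237 and 191 FPKM, and at 242 FPKM in the asynchronous culture, with a log2 fold of 2.12 at 80 against 0 minutes and of -3.28 at 300 against 80 minutes. RPLP2, a stalk protein of the ribosome, had log2 folds of 1.30 and -1.98 in these comparisons. SNORA21 was at 6.78, 180.3, 364, 152, 204 and 105 FPKM, and at 178 FPKM in the asynchronous culture.

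Among other ribosomal protein hosts, all 3 kept members in RPL23A were highest at 80 minutes. SNORD42B in RPL23A was at 4002 FPKM at 80 minutes and 1259 FPKM at 0 minutes. RPL4 differed, with 3 of its 4 members highest at 105 minutes. Its SNORD18A had a log2 fold of 0.28 at 80 against 0 minutes, with a counting interval that spanned 1, and SNORD18C one of 0.81. SNORD36C, in RPL7A, was at 3.85, 404, 299, 164, 232 and 11.1 FPKM, and at 7.02 FPKM in the asynchronous culture.

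SNHG1, a noncoding host that gives rise to 8 box C/D members, held most of the highest box C/D levels. The 10 members of highest mean in that class were SNORD2, SNORD82, SNORD101 and 7 from SNHG1 (SNORD22, SNORD26, SNORD27, SNORD28, SNORD29, SNORD30 and SNORD31). SNORD29 was at 5018, 8179, 10025, 7769, 6700.1 and 7076 FPKM at 0, 40, 80, 105, 165 and 300 minutes, and at 7109 FPKM in the asynchronous culture. SNORD22, the longest of them at 126 bases, was at 3409, 5367, 7292, 6610.4, 5336 and 4760 FPKM, and at 4853 FPKM in the asynchronous culture. All 8 were highest at 80 minutes, with log2 folds of 0.59 to 1.10 at 80 against 0 minutes, as was SNHG1 at 0.83.

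GAS5, a growth-arrest transcript that hosts 5 kept box C/D members, had 3 of them highest at 80 minutes and 2 at 300 minutes. SNORD76 was at 2382, 3305, 5833, 3755, 3196 and 4345 FPKM, and at 4262 FPKM in the asynchronous culture. The log2 folds of the 5 at 80 against 0 minutes lay between 1.12 and 1.29, closer together than in any other host with 3 or more members. SNHG12 had 3 box H/ACA members and 1 box C/D member, all highest at 80 minutes, with SNORD99 at 2101 FPKM at 80 minutes and 641 FPKM at 0 minutes. SNORD60 in SNHG19 was at 507, 1028, 2251, 2045, 499.9 and 304 FPKM, and at 783 FPKM in the asynchronous culture.

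Late members were found in NOP56 and TAF1D. NOP56 encodes a core protein of the box C/D particle itself, and all 5 of its members had their highest release value at 300 minutes. SNORD57 was at 2774, 3363, 4155, 5018, 4407 and 5296 FPKM, and at 5532 FPKM in the asynchronous culture. SNORD56 was at 1772, 1994, 2569, 2918, 2876 and 3892 FPKM, and at 4440.1 FPKM in the asynchronous culture. NOP56 was at 1198, 1473, 2039, 1934, 2037 and 2562 FPKM, and at 2401 FPKM in the asynchronous culture, and so followed the same late course.

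TAF1D, a subunit of the RNA polymerase I selectivity factor, carries 6 box H/ACA and 2 box C/D members. Of these 8, 1 was highest at 105 minutes, 3 at 165 minutes and 4 at 300 minutes. SNORA40 was at 2264, 2260.5, 3261, 5038, 4728 and 4624 FPKM, and at 3411 FPKM in the asynchronous culture. SNORD5 was at 3086, 2469.8, 4153, 4602, 5082 and 5225 FPKM, and at 5352 FPKM in the asynchronous culture. At 40 against 0 minutes the 8 log2 folds ran from -0.32 for SNORD5 to 0.53 for SNORA8, and TAF1D had 0.34.

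**Figure D3:**
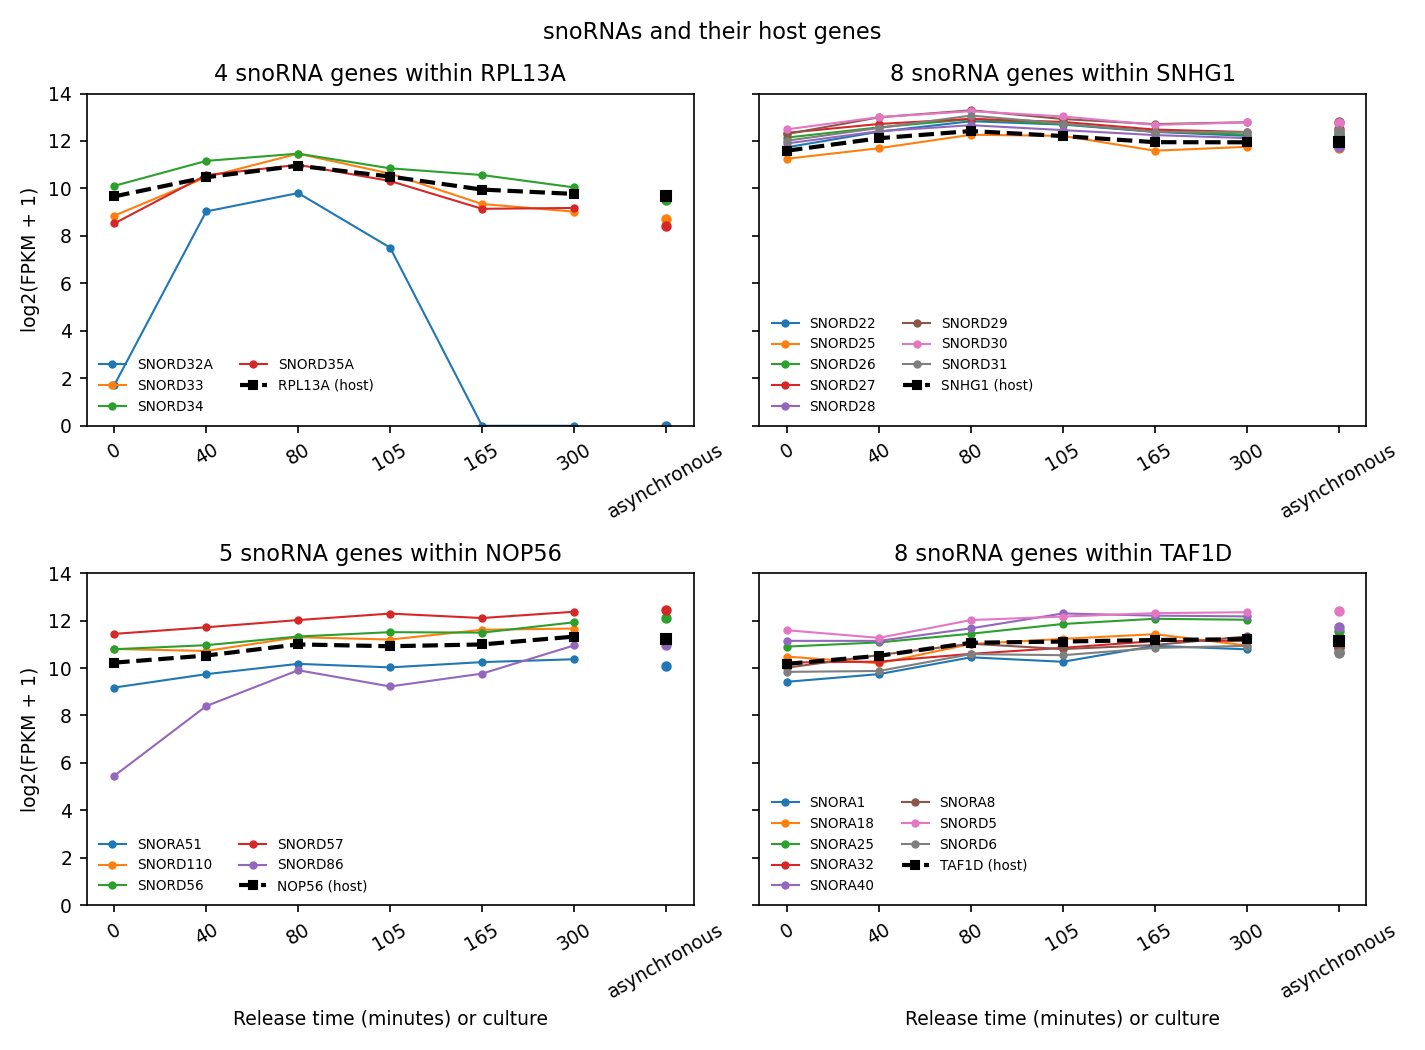
Level, log2(FPKM + 1), of each kept snoRNA gene in RPL13A, SNHG1, NOP56 and TAF1D (coloured lines) and of the host (black dashed line), at 6 release times (minutes, evenly spaced) and in the asynchronous culture (separate points). Each point is 1 pooled value. Members of RPL13A and SNHG1 are highest at 80 minutes, those of NOP56 at 300 minutes and those of TAF1D at 105 to 300 minutes.

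EIF4A2, a translation factor gene, carried the highest member of each class. It hosts SNORD2, the member of highest mean, at 7301, 9145, 9429.7, 10603, 9597 and 8818 FPKM, and at 8073 FPKM in the asynchronous culture. EIF4A2 also hosts SNORA63, the highest of the box H/ACA class, at 5398, 7569, 8175, 9406, 9185 and 8252 FPKM, and at 6104 FPKM in the asynchronous culture. The 10 box H/ACA members of highest mean were these SNORA63, SNORA81 and SNORA4 of EIF4A2, SNORA25 and SNORA40 of TAF1D, and SNORA67, SNORA33, SNORA28, SNORA3B and SNORA20. Their log2 folds at 80 against 0 minutes ran from 0.41 for SNORA4 to 1.75 for SNORA28, which lies in the initiation factor gene EIF5. SNORD82, in the nucleolin gene NCL, and SNORD101, in RPS12, had 0.55 and 0.72.

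By mean level the lowest kept members were SNORA77 (5.10 FPKM), in the calcium pump gene ATP2B4, and SNORA11B (6.54 FPKM), in DGLUCY, and members of imprinted clusters were low as well. The 5 kept SNORD114 members, in MEG8, were listed at 0 in the asynchronous culture and at 0 to 124 FPKM at 0 minutes, on at most 2.16 steps at 0 minutes. SNORD114-30 was at 124, 129.8, 133, 0, 30.8 and 68.4 FPKM. SNORD115-3 lay between 8.28 and 65.3 FPKM in all columns. SNORD109A and SNORD109B have identical values, as do SNORA59A and SNORA59B, and these cannot be told apart. SNORA7A and SNORA7B share 137 of 139 positions (98.6%), in RPL32 and RPL32P3, so that reads cannot be told apart over most of their length, and they were at 1517 and 1274 FPKM at 80 minutes.

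Folds of most members lay within 2-fold of their hosts'. A host value was present for 200 members in 117 hosts. The median log2 fold of members was -0.64 at 0 minutes against the asynchronous culture and that of hosts -0.62, and at 80 against 0 minutes they were 0.85 and 0.77. The member's log2 fold lay within 1 of its host's in 90.0% of members at 0 minutes against the asynchronous culture and in 88.0% at 80 against 0 minutes, and the median difference was 0.00 and 0.05. The quartiles of all members were -0.99 and -0.17 in the first comparison and 0.44 and 1.25 in the second. A window of 1 thus holds many pairs whether or not they match, and unmatched pairs were not compared. Of 85 members at least 2-fold higher at 80 minutes than at 0 minutes, 51 had a host that was too, and 0 had a host at least 2-fold lower. At 0 minutes against the asynchronous culture 21 of 49 lower members had a host at least 2-fold lower. At 40 against 0 minutes 0 of 23 higher members had a host at least 2-fold higher. RPL10 (log2 fold 1.09) was the only host past 2-fold there, so that count could hardly have been larger. The share of all hosts past 2-fold was not set beside these counts, so they are a description. The median ratio of member to host, on FPKM + 1, was 1.07 at 0 minutes, 1.15 at 80 minutes and 0.984 in the asynchronous culture. Since the pulse labels the precursor that holds both, new snoRNA and new host RNA cannot be told apart within introns.

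**Figure D4:**
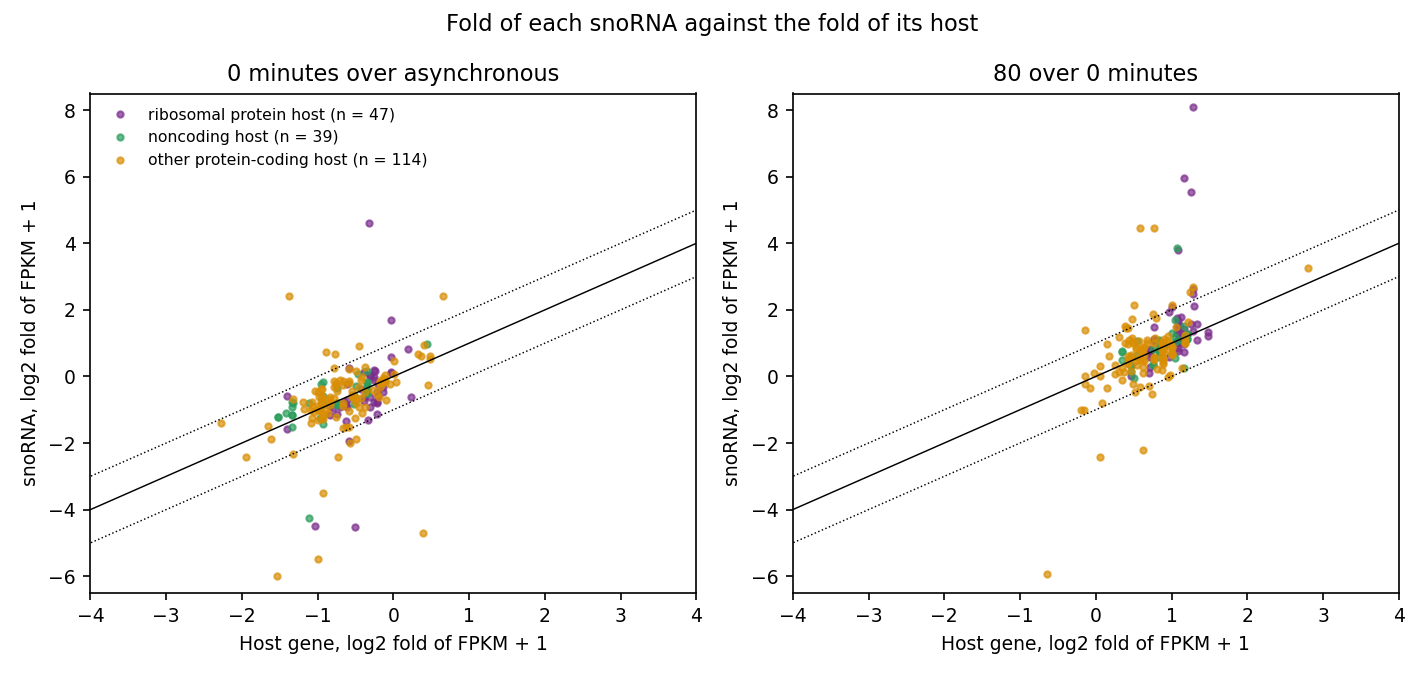
Log2 fold (FPKM + 1) of each snoRNA gene (vertical) against that of its host gene (horizontal), at 0 minutes over the asynchronous culture (left) and at 80 over 0 minutes (right), coloured by class of host. Solid lines mark equal folds and dotted lines a difference of 1, within which 90.0% (left) and 88.0% (right) of 200 members lie. Unmatched pairs of member and host were not compared.

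Within 25 hosts of 3 or more members, the log2 folds at 80 against 0 minutes spanned a median range of 0.53. Those of all members spanned 3.03 between their 5th and 95th percentiles, with quartiles of 0.44 and 1.25. These hosts hold 3 to 8 members each, and a range over so few values tends to be narrower than a span over all members. The spans are thus unlike measures, and groups of unrelated members were not compared. The widest span was in MEG8, whose members had few steps, and the narrowest in GAS5, at 0.17. SNORA57 and its host CSKMT were both highest at 80 minutes, with SNORA57 at 113, 626, 1085, 378, 64.3 and 128 FPKM, and at 168 FPKM in the asynchronous culture. CSKMT was at 128, 249, 895, 376, 139 and 181 FPKM, and at 186 FPKM in the asynchronous culture.

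Host start sites were compared because ribosomal protein genes are known for a terminal oligopyrimidine start. A run of at least 5 C or T bases that begins with C at the annotated start was present in 11 of 16 ribosomal protein hosts with a RefSeq promoter (68.8%), in 4 of 16 noncoding hosts, in 12 of 63 other protein-coding hosts (19.0%) and in 4.04% of all 27305 RefSeq promoters. Anywhere between 10 bases before and 15 after the start, such a run was present in 15, 12 and 28 of these hosts and in 33.3% of all promoters. The windows below show 18 bases before and 18 from the start onward in RefSeq (GRCh38.p14), given on the gene's strand, with the run in capitals.
RPL13A, chr19:49487590-49487625, plus strand: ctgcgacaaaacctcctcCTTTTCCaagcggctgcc
RPLP2, chr11:809949-809984, plus strand: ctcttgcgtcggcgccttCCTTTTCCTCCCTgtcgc
EIF4A2, chr3:186783559-186783594, plus strand: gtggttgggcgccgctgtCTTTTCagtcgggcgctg
TAF1D, chr11:93741478-93741513, minus strand: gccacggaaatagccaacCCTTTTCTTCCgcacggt
NOP56, chr20:2652614-2652649, plus strand: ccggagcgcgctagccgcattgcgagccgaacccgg
RPL13A and RPLP2 (highest at 80 minutes), EIF4A2 (highest at 105 minutes) and TAF1D (highest at 300 minutes) all hold such a run, and in NOP56 these letters are not at the annotated start. Nor are these letters at the annotated start of SNHG1 or GAS5. For noncoding hosts the count depended on how far from the annotated start the run was sought. It was 4 of 16 at the start and 12 of 16 in the wider window, against 4.04% and 33.3% of all promoters. Absence at the annotated start therefore does not show that a host lacks a terminal oligopyrimidine start.

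Genes for proteins that carry or assemble snoRNAs were read from the same columns. Of 44 kept, 8 were down 2-fold or more at 0 minutes against the asynchronous culture, a share near the 19.0% of all kept genes. Among the 4 core proteins of the box C/D particle, NOP56 was down 2-fold or more at 0 minutes against the asynchronous culture, and FBL (fibrillarin, the methyltransferase), NOP58 and SNU13 had log2 folds of -0.82, -0.38 and -0.41. FBL was at 145, 185, 306, 239, 210.3 and 264 FPKM, and at 257 FPKM in the asynchronous culture. At 80 against 0 minutes FBL (1.07) and SNU13 (1.33) were at least 2-fold higher, and NOP56 (0.77) and NOP58 (0.63) were not.

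Of the 4 core proteins of the box H/ACA particle, 0 were at least 2-fold apart at 0 minutes from the asynchronous culture. DKC1 (dyskerin, the pseudouridine synthase), NOP10, NHP2 and GAR1 had log2 folds between -0.62 and -0.32 there. At 80 against 0 minutes DKC1 (1.00), NHP2 (1.52) and GAR1 (1.31) were at least 2-fold higher and NOP10 had 0.82. NHP2 was at 146, 184, 422, 378, 332 and 395 FPKM, and at 225 FPKM in the asynchronous culture. The median of the 4 relative to all kept genes was -0.24 at 0 minutes against the asynchronous culture, but 0.26 after quantile normalization and 0.02 with a minimum of 10 FPKM, and 0.85 at 80 against 0 minutes.

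Assembly factors numbered 13, with 0 up 2-fold or more and 4 down by as much at 0 minutes against the asynchronous culture and 3 up and 0 down at 80 against 0 minutes. Of 11 kept processing and export genes, 0 were higher and 0 lower in the first comparison and 5 higher and 0 lower in the second. Of 12 proteins of the U3 processome, which makes the first cuts in the ribosomal RNA precursor, 0 were higher and 3 lower in the first comparison and 5 higher and 0 lower in the second. Over all kept genes 14.1% were up and 19.0% down in the first comparison and 20.1% up and 2.65% down in the second, so that several of these counts lie near the background. The median log2 folds of these 3 lists at 80 against 0 minutes were 0.78, 0.97 and 0.90, against 0.31 over all kept genes.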

How the data were processed

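Nascent RNA was captured by EU labelling and sequenced as stranded libraries depleted of ribosomal RNA, per the labels' protocols. Per the file headers, the authors deposited FPKM per RefSeq transcript, 1 pooled column for each of 7 groups. Tools listed, per the submitters' processing notes, include TopHat, Bowtie2 2.2.9, bcl2fastq and bedtools, with the build hg19. No source used here gives the pooling of libraries, the counting or any background subtraction.

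Of 48205 transcripts, 47127 matched a symbol in a RefSeq table (GRCh38.p14, names alone), giving 24242 genes. A gene's value was the mean of its distinct transcript values, and 22940 genes with at least 1 FPKM in 3 columns were kept. Folds are on log2(FPKM + 1), which understates those of low genes, and 2-fold was the size counted. Moderated tests had been planned, but with 1 value per group none could be run. Named members were the 10 of highest mean and the 3 largest folds in each direction per class and main comparison, with a minimum of 10 FPKM in whichever group was higher and of 1 FPKM in the other, their hosts, the processing snoRNAs and the core proteins, and others were chosen after their values were seen. Members and gene lists (45 genes, 44 kept) were chosen with earlier results of these data known.

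Steps were the most frequent FPKM times kilobases among 1061 microRNA genes in each column, 4.06 at 0 minutes and 2.18 in the asynchronous culture. Hosts came from GENCODE 29 gene spans (GRCh38), 12 members by span alone. Sequences were matched by name for 212 of the 224 members. Python 3.11.15, pandas 2.3.3 and scipy 1.17.1 were used, and the fold and step estimates were tested on simulated data. The alternatives tried were other pseudocounts, filters and scalings, another choice of transcript, and subsets of members. No per-sample column of another kind was present.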

Additional observations from a re-analysis of the deposited data

How the results depend on the processing

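No paired analysis was possible because the table holds 1 pooled column per group, and for the same reason leaving out each replicate in turn was not run. Of the alternative values of the main results, 490 stayed near the value reported, 71 moved and 3 reversed, and the cause was not tested. Medians relative to all kept genes, and differences between sets, hardly change when a whole column is multiplied. Their agreement on equal medians and equal sums was thus fixed in advance and is no support. Not taken relative to all kept genes, the member median at 80 against 0 minutes was 0.84 as deposited and 0.08 on equal sums. That of other protein-coding hosts turned from 0.64 to -0.10, which is not among the 3 reversed. Counts below are of members at least 2-fold apart, and medians are log2 folds relative to all kept genes. The share of all kept genes past 2-fold was not counted under these settings, so the counts are a description.

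With quantile normalization, 0 minutes against the asynchronous culture gave medians of -0.20 for box H/ACA (10 higher, 12 lower) and -0.20 for box C/D (8 higher, 11 lower). At 40 against 0 minutes both medians were 0.10, with 8 box H/ACA members lower. At 80 against 0 minutes the medians were 0.15 for box H/ACA (14 higher, 8 lower) and 0.22 for box C/D (13 higher, 9 lower), and by host 0.57 for ribosomal protein, 0.33 for noncoding and 0.03 for other protein-coding hosts. The particle lists at 0 minutes against the asynchronous culture then had medians of -0.03 (box C/D core), 0.26 (box H/ACA core, reversed), -0.09 (assembly), -0.26 (processing and export) and -0.15 (U3 processome). At 40 against 0 minutes the box C/D core, box H/ACA core and processing lists had 0.06, 0.05 and -0.06. For 80 against 0 minutes the box C/D core, box H/ACA core, assembly and U3 processome lists had 0.19, 0.30, 0.03 and 0.10. At 300 minutes against the asynchronous culture the box C/D core had 0.01 (reversed).

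Equal column medians gave 8 box H/ACA members higher and 18 lower, and 10 box C/D members lower, at 0 minutes against the asynchronous culture. They gave 7 box H/ACA members lower at 40 against 0 minutes, and 21 box H/ACA and 22 box C/D members higher at 80 against 0 minutes. Equal column sums, chosen after seeing the data, gave 10 higher and 16 lower (box H/ACA) and 8 higher and 8 lower (box C/D) at 0 minutes against the asynchronous culture, and 8 box H/ACA members lower at 40 against 0 minutes. The counts at 80 against 0 minutes were 12 higher and 8 lower (box H/ACA) and 13 higher and 7 lower (box C/D).

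With at least 10 FPKM in 3 columns, the 0-minute medians against the asynchronous culture were -0.28 (box H/ACA), -0.21 (box C/D), -0.22 (box C/D core), 0.02 (box H/ACA core, reversed) and -0.14 (assembly). The 80-minute medians against 0 minutes were 0.35 (box C/D), 0.37 (noncoding hosts) and 0.15 (other protein-coding hosts). With no filter, 9 box C/D members were higher at 0 minutes against the asynchronous culture, and 6 and 7 were lower at 40 and at 80 against 0 minutes. A pseudocount of 10 left 1 box H/ACA member lower at 80 against 0 minutes, and leaving out members that share values or overlap an exon left 2.

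Among members with at least 3 read steps in both groups, chosen after seeing the data, 0 in either class were higher and 18 box H/ACA members lower at 0 minutes against the asynchronous culture. At 40 against 0 minutes 4 box H/ACA and 10 box C/D members were higher and 0 in either class lower, and at 80 against 0 minutes 0 in either class were lower. At 300 minutes against the asynchronous culture 1 box H/ACA member was higher and 3 lower, and 3 box C/D members were higher. Without members in ribosomal protein hosts, also chosen after seeing the data, 12 box C/D members were higher at 40 and 32 at 80 against 0 minutes, and 2 lower at 300 minutes against the asynchronous culture. The box H/ACA minus box C/D difference of medians lay between -0.19 and 0.11 over all settings and the 4 main comparisons. Of the log2 folds of single named members, 7 moved by more than 1, all with a pseudocount of 10 and all of SNORA21, SNORD32A or SNORD36C.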

Other observations

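Small Cajal body RNAs, relatives of snoRNAs that guide modification of spliceosomal RNAs, were read from the same columns for comparison. The table lists 24, and 23 were kept. At 0 minutes against the asynchronous culture 0 were up 2-fold or more and 8 down by as much, against 14.1% and 19.0% of all kept genes, and the median log2 fold was -0.56, which is -0.42 relative to all kept genes. At 80 against 0 minutes 6 were up and 1 down by that size, against 20.1% and 2.65% of all kept genes, and the median was 0.60, or 0.29 relative to all kept genes. SCARNA12 was at 141, 266, 660.4, 453, 436 and 478 FPKM at 0, 40, 80, 105, 165 and 300 minutes, and at 809 FPKM in the asynchronous culture. SCARNA13 was at 257, 354, 904, 392, 512 and 320.0 FPKM, and at 360.3 FPKM in the asynchronous culture. SCARNA15 was higher later, at 389, 326, 700.4, 1110.1, 1484 and 730.1 FPKM, and at 437 FPKM in the asynchronous culture. SCARNA17 was the highest of these RNAs at 0 minutes, at 2244 FPKM, against 2935 FPKM in the asynchronous culture. The genes named here were chosen after their values were seen.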
